A study of Mus musculus with 8 samples.

Results

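The genes of prostaglandin and leukotriene synthesis were examined in D1 cells, a long-term splenic dendritic cell (DC) line from C57BL/6 mice. The group held 7 of the 37310 annotated genes (Pla2g4a, Ptgs1, Ptgs2, Ptges, Alox5, Alox5ap and Ltc4s), listed by name with earlier results of these data known, and all 7 were found on mm9. The list itself uses no measured value. Each was described by its NFATc2 sites, taken as ChIP-seq peak summits within 100 kb of an annotated transcription start site (TSS), and by its peaks of histone H3 trimethylated at lysine 4 (H3K4me3) that overlapped the gene or lay within 1 kb of a TSS. The study asked which regions NFATc2 occupies once dectin-1 is engaged, and how H3K4me3 differs when calcineurin is inhibited.

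There were 4 ChIP-seq experiments, each with 1 ChIP library and 1 input library. NFATc2 carrying a C-terminal V5 tag was precipitated from cells given curdlan, a fungal β-glucan that dectin-1 binds, at 10 μg/ml for 30 min. These cells carried the tagged protein on a lentiviral vector and were sorted for low GFP, so the sites are those of an introduced protein. H3K4me3 was profiled in non-treated cells (NT), in cells given the same dose of curdlan for 2 h, and in cells given curdlan with FK506, a calcineurin inhibitor, for 2 h. The labels used here do not give the FK506 dose of these libraries or say whether the H3K4me3 cells carried the tag. Of the 10 dendritic and myeloid marker genes found, 9 had an H3K4me3 peak at a TSS in every list, Flt3 being the exception. None of 4 mast cell, 3 T cell, 3 B cell and 3 other tissue markers had one. Macrophage and monocyte markers were not checked as a separate set, so these counts do not tell DCs from such cells.

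Eicosanoids are lipid mediators made from arachidonic acid, which cytosolic phospholipase A2, the product of Pla2g4a, releases from membranes. The cyclooxygenases encoded by Ptgs1 and Ptgs2 convert it to prostaglandin H2, and the microsomal prostaglandin E synthase encoded by Ptges makes prostaglandin E2 from that. On the other branch 5-lipoxygenase (Alox5), helped by its activating protein (Alox5ap), makes leukotriene A4, and leukotriene C4 synthase (Ltc4s) conjugates it to glutathione. DCs make both classes, and prostaglandin E2 and cysteinyl leukotrienes are known to affect DC migration. H3K4me3 marks the start of active or poised genes. NFAT proteins enter the nucleus when calcineurin removes phosphates from them, and they bind GGAAAA cores, often beside an AP-1 element such as TGANTCA.

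The NFATc2 library held 14377535 tags. The H3K4me3 libraries held 16662316 in NT, 21289349 after curdlan and 19468498 after both agents. H3K4me3 levels are given as counts of tags in the called peaks of a gene per 1000000 tags of the library (CPM). The deposited lists held 9438 NFATc2 peaks and between 14872 and 15799 H3K4me3 peaks. With 1 library per condition there was no replicate error, and no test between conditions was made. The 95% intervals given below are exact Poisson intervals for counts and exact conditional intervals for ratios, and they cover counting error only. The input of the curdlan library was shallower for its ChIP (2.29 ChIP tags per input tag) than that of FK506 (1.96) or NT (1.38). This enters the fold enrichment of MACS, the peak caller. CPM is not divided by the input, but it counts only called peaks, and the input bears on which peaks were called and how far they extend.

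NFATc2 sites were called at the promoter regions of Ltc4s and Pla2g4a and in the first part of Alox5. The Pla2g4a promoter site was weak, with 29 tags. Ptgs2 had no site within 100 kb. In all, 11 sites lay within 100 kb of 6 of the 7 genes, against 55.4% of the 22350 protein-coding genes with a site that near. Within 30 kb there were sites at 3 of 7 genes, against 30.2% of genes, and within 1 kb at 2 of 7, Ltc4s and Pla2g4a, against 5.29%. The same 3 genes, Pla2g4a, Alox5 and Ltc4s, were the only members whose own TSS was the nearest to any of these sites, for 5 of the 11. No site lay in an exon, 10 lay in an intron of an annotated gene, and 4 lay inside a member. The limit of 100 kb left in a site 88253 bp from Alox5ap and left out the site nearest to Ptgs2, at 139181 bp. At a MACS p of 1e-10 or less, 5 members kept a site within 100 kb, and no Pla2g4a site passed.

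The sequence around the sites that belong to a member's own TSS is shown first, because the 3 sites nearest to a marked TSS held no GGAAAA within 100 bp of the summit and the 2 sites deeper in an intron did. Each run covers 201 bases centred on the summit, on the + strand of mm9, with GGAAAA, in either orientation, and TGANTCA in capitals. The regions are Ltc4s promoter chr11:50052668-50052868, Pla2g4a promoter chr1:151807973-151808173, Alox5 first part chr6:116409011-116409211, Pla2g4a intron chr1:151787979-151788179 and Alox5 intron chr6:116382461-116382661.
Ltc4s promoter: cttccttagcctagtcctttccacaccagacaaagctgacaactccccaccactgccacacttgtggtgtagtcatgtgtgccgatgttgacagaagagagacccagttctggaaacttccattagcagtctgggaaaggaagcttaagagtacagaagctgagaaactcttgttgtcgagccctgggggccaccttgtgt
Pla2g4a promoter: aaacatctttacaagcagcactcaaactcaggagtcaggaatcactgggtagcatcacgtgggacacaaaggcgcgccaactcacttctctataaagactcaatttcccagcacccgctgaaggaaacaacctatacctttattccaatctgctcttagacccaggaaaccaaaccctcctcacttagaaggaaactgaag
Alox5 first part: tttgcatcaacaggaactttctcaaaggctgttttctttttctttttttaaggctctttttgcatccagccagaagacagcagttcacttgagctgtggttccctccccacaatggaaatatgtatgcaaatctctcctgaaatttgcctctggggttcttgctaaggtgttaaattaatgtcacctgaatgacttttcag
Pla2g4a intron: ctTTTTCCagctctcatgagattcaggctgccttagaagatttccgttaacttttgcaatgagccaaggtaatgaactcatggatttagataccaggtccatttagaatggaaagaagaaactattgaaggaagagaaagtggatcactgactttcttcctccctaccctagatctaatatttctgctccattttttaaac
Alox5 intron: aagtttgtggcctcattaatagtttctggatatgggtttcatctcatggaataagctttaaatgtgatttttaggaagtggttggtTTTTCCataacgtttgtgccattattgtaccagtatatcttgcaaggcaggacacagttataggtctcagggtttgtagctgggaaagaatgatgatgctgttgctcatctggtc

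None of the 3 sites nearest to a marked TSS held either motif in these windows. The 2 deeper sites each held 1 GGAAAA, 9 bp from the summit in Alox5 and 93 bp in Pla2g4a, near the edge of the window. Elsewhere in their peaks the 3 sites did hold 1 each, 147 bp from the summit at Ltc4s, 293 bp at Pla2g4a and 1046 bp at Alox5. GGAAAA occurred somewhere in 9 of the 11 peaks, and the share over all peaks is not given here. Within 250 bp of the summit 6 of the 11 sites held it, against 61.7% of all summits. Over the 11 sites, 3 held GGAAAA within 100 bp of the summit and 3 held TGANTCA, against 45.6% and 21.8% of all 9438 NFATc2 summits searched on both strands. A missing match says only that these letters were not in the window.

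A site 55942 bp upstream of the marked TSS of Ptges, chr2:30841225-30841425, held both motifs. It is shown because one GGAAAA stood next to a TGAGTCA with a single base between them. That TSS belongs to a noncoding transcript, and the nearest coding TSS of Ptges lay 26.6 kb further from the site.
Ptges distal site: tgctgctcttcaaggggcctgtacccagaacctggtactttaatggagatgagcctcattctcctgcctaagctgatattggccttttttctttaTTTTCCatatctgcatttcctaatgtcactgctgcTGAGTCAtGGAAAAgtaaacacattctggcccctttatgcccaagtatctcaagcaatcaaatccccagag
This site lay in an intron of Usp20, whose TSS was 3376 bp away, so Usp20 was the nearer gene. The 250 bases before the Ptgs2 TSS, chr1:151947004-151947253, are shown because the gene had no called site although they held a GGAAAA 135 bp before the TSS.
Ptgs2 promoter: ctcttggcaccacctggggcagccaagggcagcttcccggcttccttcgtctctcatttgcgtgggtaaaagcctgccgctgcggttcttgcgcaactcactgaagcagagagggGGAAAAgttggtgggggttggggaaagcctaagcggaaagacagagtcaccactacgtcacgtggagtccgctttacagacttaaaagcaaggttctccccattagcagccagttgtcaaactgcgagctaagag
GGAAAA occurred in 19.8% of the 45940 promoters of the same length, taken at coding TSSs. No other member had it in the 250 bases before its marked TSS. Ptges had a TGANTCA 26 bp before its marked, noncoding TSS (5.61% of the coding promoters).

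Pla2g4a (ENSMUSG00000056220, chr1:151676748-151808420, − strand) had a weak NFATc2 site at its promoter and a stronger one inside the gene. The promoter summit lay 312 bp past a TSS, in an intron, with 29 tags (19.4 to 41.6), enriched 11.2-fold at a MACS p of 1.4e-07. This tag count was at percentile 9.85 of all NFATc2 peaks, so it is among the smaller peaks called. The other site lay 20.3 kb from the marked TSS, also in an intron, with 69 tags, enriched 10.4-fold at a MACS p of 2.5e-09. Its summit was outside H3K4me3 in every list, although part of the site overlapped a small H3K4me3 peak of NT (32 tags, FDR 14.64%). The promoter summit was inside the H3K4me3 peak in every list.

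H3K4me3 at Pla2g4a was 51.5 CPM in NT (48.1 to 55.1), 33.1 with curdlan (30.7 to 35.6) and 30.8 with curdlan and FK506 (28.4 to 33.3). NT was the highest of the 3, and the intervals of both curdlan conditions overlapped each other. The ratio of curdlan to NT was 0.642 (0.580 to 0.710). The promoter peak held most of this, with 753, 634 and 599 tags. Small peaks within the gene gave the rest, and one of these in NT, with 32 tags and an FDR of 14.64%, was called in no other list. Restricting the lists to peaks with an FDR of 5% or less moved the log2 ratio from -0.64 to -0.58, just short of 1.5-fold.

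Ptgs1 (ENSMUSG00000047250, chr2:36085946-36107792, + strand), the constitutive cyclooxygenase, had no NFATc2 site inside it. Its 1 site lay 30298 bp from its nearest TSS and 20501 bp past the end of the gene, in intergenic sequence, with 97 tags, enriched 15.1-fold at a MACS p of 7.9e-17. The nearest TSS was that of an olfactory receptor pseudogene, Olfr334-ps1. This summit lay inside an H3K4me3 peak of 150 tags (9.00 CPM) in NT and in no called H3K4me3 peak after curdlan, with or without FK506.

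The H3K4me3 level of Ptgs1 was 66.1 CPM in NT (62.2 to 70.1), 35.5 with curdlan (33.0 to 38.1) and 35.5 with FK506 added (32.9 to 38.3). The curdlan conditions could not be told apart, and both lay well under NT. The ratio of curdlan to NT, 0.537 (0.489 to 0.590), was the lowest of the group, and among the 11298 genes marked in both lists 0.876% had a lower one. The length of the called peak hardly differed, at 3.49, 3.29 and 3.34 kb.

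Ptgs2 (ENSMUSG00000032487, chr1:151947254-151955140, + strand), the inducible cyclooxygenase, was the only member with an H3K4me3 peak in the curdlan list alone. The peak held 79 tags, or 3.71 CPM (2.94 to 4.62), enriched 28.1-fold at a MACS p of 1.8e-14. It was 1364 bp long, and its summit lay 64 bp past the TSS. It also covered the TSS of 7530420F21Rik, a divergent long noncoding RNA gene that starts 250 bp upstream, so the mark cannot be assigned to either gene. In NT and with FK506 the nearest called peak was 63.1 and 63.0 kb away.

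The Ptgs2 peak was small but above the smallest peaks called. At the same CPM it would have held 61.8 tags in NT and 72.2 with FK506, and 6.42% of NT peaks and 5.82% of FK506 peaks had fewer CPM. The smallest peaks called held 18 tags in NT and 23 with FK506. An absent peak therefore means a signal that did not pass the threshold, and the deposited lists hold no count for Ptgs2 in NT or FK506. Of the H3K4me3 experiments, curdlan had the most ChIP tags (21289349) and the fewest input tags (9309800). The part of depth and input in this call was not tested. Of the 10850 genes with no peak in NT, 147 (1.35%) had one with curdlan, and 68 of these 147 (46.3%) had none with FK506. Over all 22350 genes this pattern occurred in 0.304%.

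Ptges (ENSMUSG00000050737, chr2:30744991-30785383, − strand) differed least among conditions. Its level was 43.3 CPM in NT (40.2 to 46.5), 40.3 with curdlan (37.6 to 43.1) and 40.8 with FK506 (38.0 to 43.8), and all 3 intervals overlapped. The ratio of curdlan to NT was 0.931 (0.843 to 1.03). The peak stood at the TSS of a noncoding transcript of the gene, and the nearest H3K4me3 peak was 24.7 to 24.8 kb from the nearest TSS of a coding transcript in the 3 lists. Fold enrichment gave another picture for this gene, with 40.0 in NT, 114 with curdlan and 66.5 with FK506. Its distal NFATc2 site, with 94 tags, enriched 16.9-fold at a MACS p of 1.0e-19, lay inside a small H3K4me3 peak of 44 tags (FDR 12.94%) in NT and in none after curdlan.

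**Figure D1:**
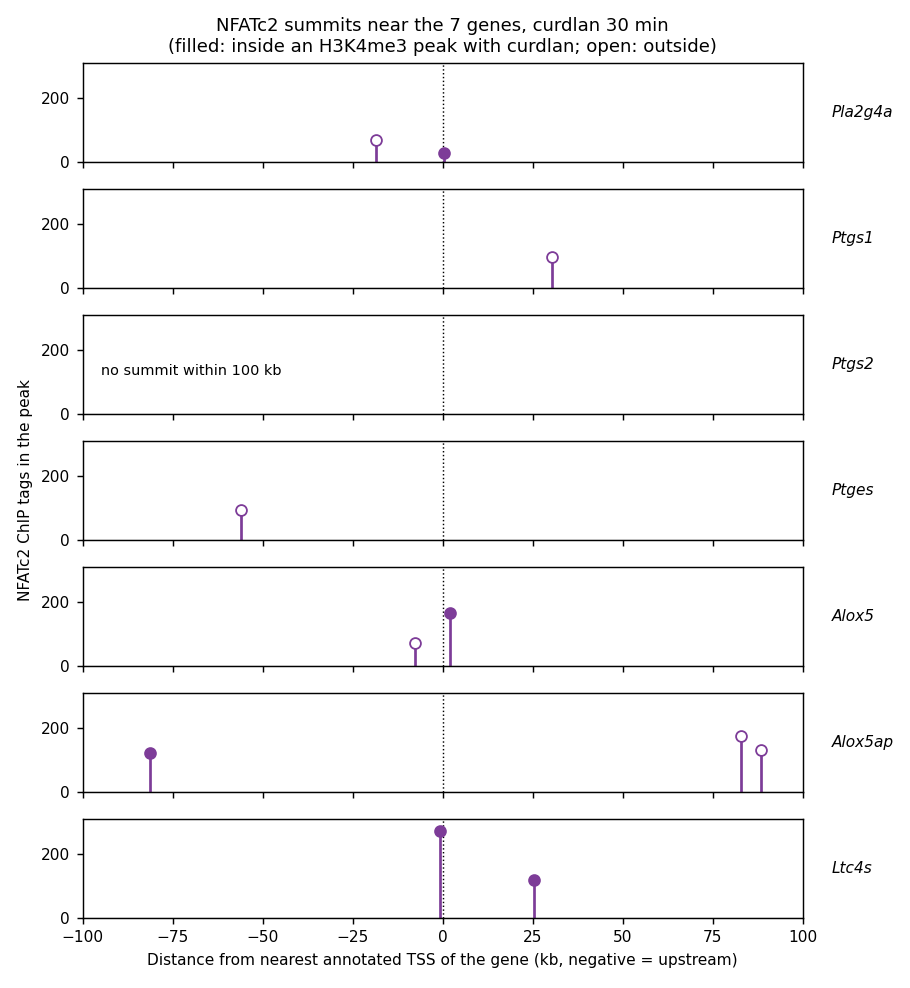
NFATc2 summits within 100 kb of each gene in D1 cells given curdlan for 30 min, with the distance from the nearest annotated TSS of that gene (kb) on the x axis and the ChIP tags of the peak on the y axis. Filled points lie inside an H3K4me3 peak of the curdlan list and open points outside; the highest point is the Ltc4s promoter site with 271 tags, and Ptgs2 has no point.

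In the leukotriene branch, Alox5 (ENSMUSG00000025701, chr6:116360095-116411196, − strand) had 2 NFATc2 sites, both in introns. The first lay 1931 bp past a TSS with 164 tags (140 to 191), enriched 7.55-fold at a MACS p of 4.4e-19, inside the H3K4me3 peak of every list. The second, 28.5 kb from the marked TSS, held 72 tags but was enriched 35.0-fold at a MACS p of 6.2e-28, outside H3K4me3. By tags the first was the larger and by fold enrichment the second, and the GGAAAA of the second, printed above, lay 9 bp from its summit.

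Alox5 had 118 CPM of H3K4me3 in NT (113 to 123), 79.3 with curdlan (75.6 to 83.2) and 73.9 with FK506 (70.1 to 77.8). The mark was broad, covering 6.51, 6.39 and 6.13 kb, and in NT 5.85 kb of it lay downstream of the TSS. Its NT length was at percentile 97.6 of NT peaks. The ratio of curdlan to NT was 0.674 (0.631 to 0.719), short of 1.5-fold, and that of FK506 to NT, 0.627 (0.586 to 0.672), was past it.

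Alox5ap (ENSMUSG00000060063, chr5:150076634-150099621, + strand) carried the most H3K4me3 of the 7 genes and had no NFATc2 site inside it. Its level was 209 CPM in NT (202 to 216), 120 with curdlan (115 to 124) and 139 with FK506 (134 to 144). The 3 intervals did not overlap, with NT highest and curdlan lowest. In NT it stood at percentile 98.7 of the genes with a peak. The peak was 6.71, 6.65 and 7.08 kb long, with 5.47 kb downstream of the TSS in NT. Its fold enrichment was the lowest of the group, at 23.8, 21.2 and 25.9.

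The 3 NFATc2 sites near Alox5ap were all beyond 50 kb and nearer to other genes. One, 81353 bp upstream, lay 358 bp from a TSS of 5730422E09Rik and held 120 tags. The other 2, with 176 and 132 tags, lay in BC028471, at 82676 and 88253 bp from a short transcript at the end of Alox5ap and 105 and 111 kb from its marked TSS.

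Ltc4s (ENSMUSG00000020377, chr11:50049971-50052118, − strand) had the NFATc2 peak with the most tags and the lowest MACS p of the group, although sites near Alox5 and Alox5ap had a higher fold enrichment. Its summit lay 650 bp upstream of the TSS with 271 tags (240 to 305), enriched 20.5-fold at a MACS p of 8.7e-52, at percentile 97.4 of all NFATc2 peaks by tags. The position is also in an intron of Gm16641, a noncoding gene on the opposite strand. The summit was inside the H3K4me3 peak in all 3 lists, and no GGAAAA was found within 100 bp of it. A second site, 25461 bp downstream, lay in an intron of Mgat4b, with 117 tags and 16.2-fold enrichment. It lay inside an H3K4me3 peak of 2188 tags with curdlan and 2149 tags with FK506. No called NT peak overlapped this site, and whether an NT peak lay just beside it is not given here.

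H3K4me3 at Ltc4s was 62.2 CPM in NT (58.5 to 66.1), 45.9 with curdlan (43.1 to 48.9) and 47.0 with FK506 (44.0 to 50.1). The intervals of the 2 curdlan conditions overlapped and both lay under that of NT. The ratio of curdlan to NT was 0.738 (0.676 to 0.806), and the peak was 3.29, 3.48 and 3.47 kb long. In all 3 lists this peak also covered or lay near a TSS of Gm16641, so the mark cannot be assigned to Ltc4s alone.

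**Figure D2:**
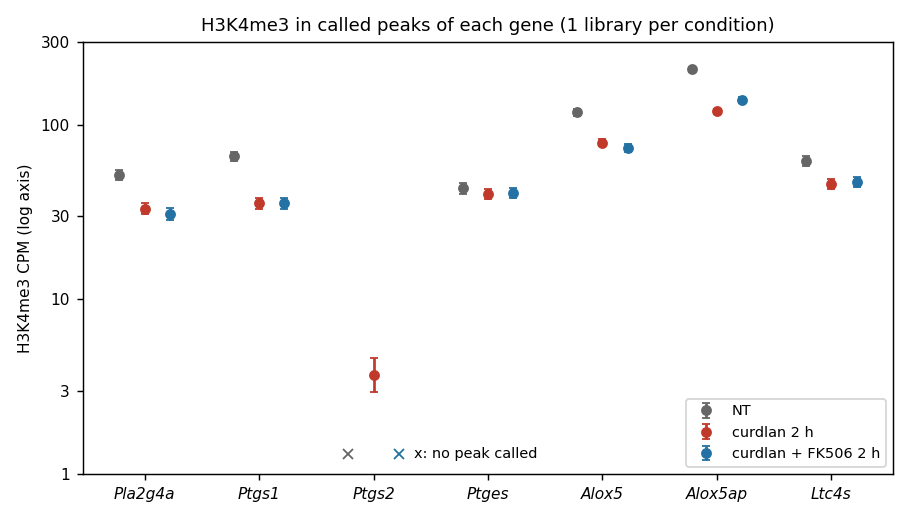
H3K4me3 of each gene as CPM on a log axis, with exact 95% Poisson intervals, for NT (grey), curdlan 2 h (red) and curdlan with FK506 2 h (blue), 1 library each. Alox5ap is highest in every condition, Ptges is nearly level at 40.3 to 43.3, and Ptgs2 has a point with curdlan only (crosses mark no peak called).

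Across the group, H3K4me3 was lower with curdlan than in NT at most of the genes that had it in both. A peak was present at 6 of 7 members in NT, 7 with curdlan and 6 with FK506, against 51.5%, 51.2% and 51.1% of protein-coding genes. Ptges counts here through a peak at a noncoding TSS. For curdlan over NT the interval lay under 1 at 5 of 6 genes, the exception being Ptges. The share of all genes with such an interval is not given here, and the median gene also had a ratio under 1. Past 1.5-fold, 3 of 6 were lower (Ptgs1, Alox5ap and Pla2g4a), against 3.74% of all genes, and 0 were higher, against 2.58%. The median log2 ratio was -0.60 over the 6 members and -0.13 over 11298 genes. Centred on that median, 2 members remained lower by 1.5-fold, Ptgs1 and Alox5ap, while the background was 1.80% lower and 3.71% higher. The median log2 ratio of peak length was -0.02 for the members.

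The H3K4me3 CPM with FK506 and curdlan was within 1.5-fold of that with curdlan alone at all 6 members marked in both, while 0.497% of genes were higher by 1.5-fold and 1.57% lower. The ratio was 0.930 for Pla2g4a, 1.00 for Ptgs1, 1.01 for Ptges, 0.931 for Alox5 and 1.02 for Ltc4s. Alox5ap, at 1.16 (1.10 to 1.23), was at percentile 97.1 of 11277 genes. Fold enrichment differed more, with FK506 over curdlan at 2.19 for Pla2g4a, 1.57 for Ltc4s and 0.582 for Ptges. When it was centred, 3 members were higher by 1.5-fold. The share of all genes past 1.5-fold by fold enrichment is not given here, and the shares above are for CPM. Against NT, which shares no ChIP library with FK506, 4 of 6 were lower by 1.5-fold (Ptgs1, Pla2g4a, Alox5 and Alox5ap), compared with 4.70% of genes, and 0 were higher, compared with 1.68%. Only Ptgs1 remained lower by 1.5-fold after centring on the median gene. By fold enrichment all 6 were higher with FK506 than in NT, and so was the median gene (log2 0.45). Ptgs1 (0.22) and Alox5ap (0.12) lay under that median. Both comparisons with NT share the NT library and are not independent of each other.

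The direction of the differences between curdlan and NT also depended on the measure. Fold enrichment, whose median over the list was 34.6 in NT, 58.6 with curdlan and 48.4 with FK506, was higher with curdlan than in NT at Alox5 (63.5 against 48.7) and Ptges, and lower at the other 4 genes. With each gene set against the median gene, fold enrichment was again lower with curdlan at Alox5 (log2 -0.35), and Ptges was higher (0.78). Ptgs1, Alox5ap, Pla2g4a and Ltc4s were lower with curdlan by CPM, by fold enrichment and by centred fold enrichment.

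**Figure D3:**
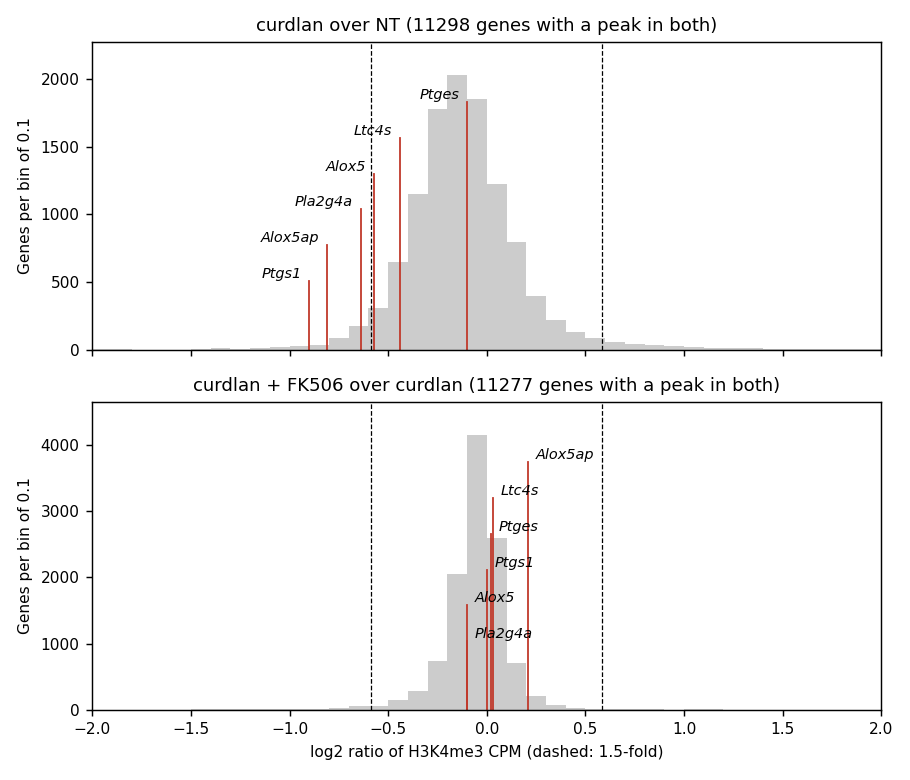
Histograms of the log2 ratio of H3K4me3 CPM over all genes with a peak in both lists, for curdlan over NT (11298 genes) and curdlan with FK506 over curdlan (11277 genes), with the members as red lines and 1.5-fold as dashed lines. In the upper panel 5 of the 6 members lie below the median gene at -0.13, and in the lower panel all 6 lie within 1.5-fold.

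**Figure D4:**
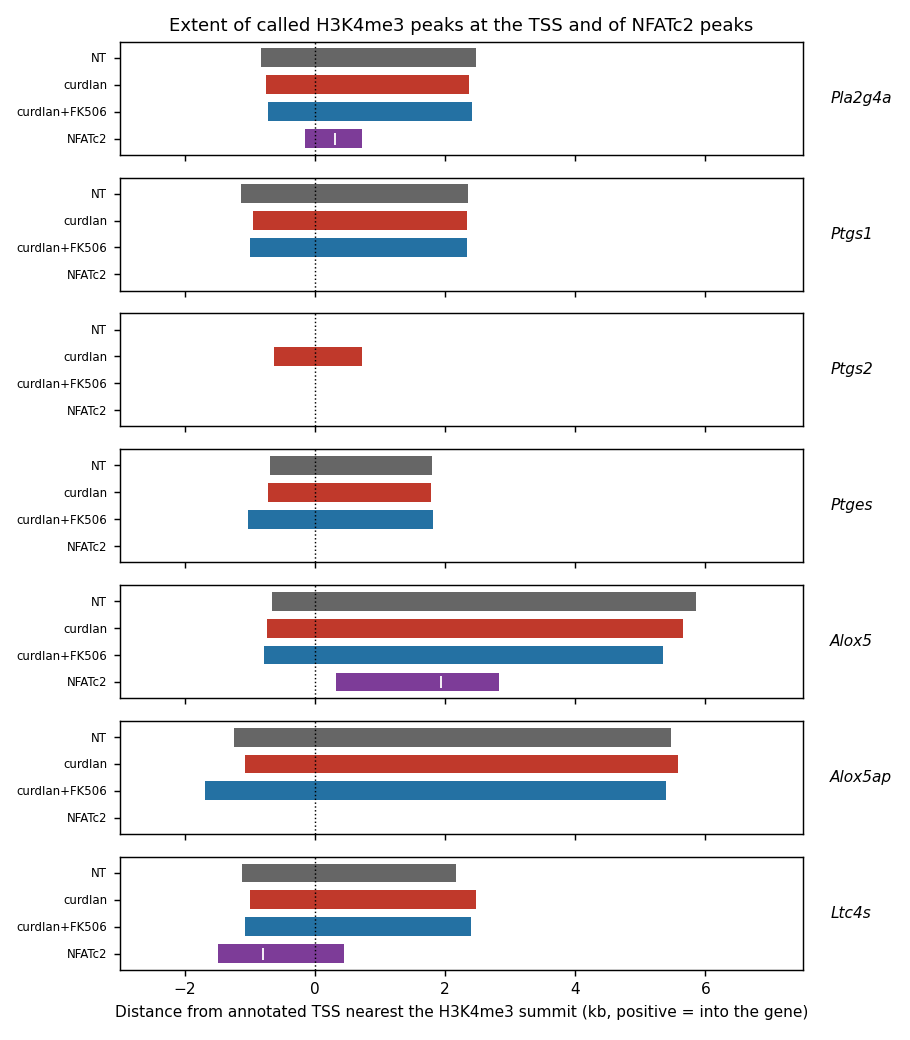
Extent of the H3K4me3 peaks at the marked TSS (the annotated TSS nearest to the H3K4me3 summit) in kb, by list, with NFATc2 peaks in purple and their summits as white ticks. Alox5 and Alox5ap reach more than 5 kb into the gene in all 3 lists, and NFATc2 peaks overlap the mark at Pla2g4a, Alox5 and Ltc4s.

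NFATc2 summits lay inside the NT H3K4me3 peak of 3 of the 6 members that had one, Pla2g4a, Alox5 and Ltc4s, against 15.3% of all genes marked in NT. Of all 9438 summits, 23.8% lay inside an NT peak. The 3 members with NFATc2 inside the marked region had curdlan-over-NT ratios of 0.642, 0.674 and 0.738. The 3 without it, Ptgs1, Alox5ap and Ptges, had 0.537, 0.571 and 0.931, so the ranges overlapped.

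The rest of the pathway was taken as 48 further genes in 4 lists, all of them annotated. An NFATc2 summit lay within 100 kb of 35 (55.4% of protein-coding genes) and within 1 kb of 5 (5.29% of protein-coding genes). These 5 were Lta4h, which hydrolyses leukotriene A4 to leukotriene B4 (154 bp), Pla2g12a, a secreted phospholipase A2 (204 bp), Tbxas1, the thromboxane synthase (206 bp), Cysltr1, a receptor for cysteinyl leukotrienes (840 bp), and Dpep2, a dipeptidase (970 bp). With NT and curdlan both marked at 25 of the 48, 2 were higher with curdlan by 1.5-fold (2.58% of all genes) and 2 were lower (3.74% of all genes), with a median log2 ratio of -0.20. FK506 and curdlan differed by 1.5-fold at 0 of the 24 marked in both, while 0.497% of all genes were higher and 1.57% lower. Ggt1 and Ptgir, described below, had a peak with curdlan but none with FK506 and are not among these 24.

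By list, an NT peak was present at 5 of 13 phospholipases, 7 of 9 prostanoid enzymes, 5 of 10 leukotriene and lipoxygenase enzymes and 9 of 16 receptors and transporters. That is 26 of 48 in all, beside 51.5% of protein-coding genes. Among the enzymes 1 was past 1.5-fold, Ptgr2, a prostaglandin reductase, which was higher with curdlan (60.2 CPM in NT, 110 with curdlan and 116 with FK506). Ltb4r1, the high-affinity leukotriene B4 receptor, was lower with curdlan, at 40.2, 21.1 and 28.5 CPM. Cysltr1 was also lower, at 74.1, 47.9 and 45.4. Ptgir, the prostacyclin receptor, had 3.12 in NT, 6.34 with curdlan and no peak with FK506. Ggt1, a gamma-glutamyl transferase, had a peak with curdlan only (94 tags), and Alox12, a lipoxygenase, had one in NT only (64 tags). Both were named after their values were seen.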

How the data were processed

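Reads were mapped by the authors to mm9 with bowtie, and peaks were called in each ChIP library on its own relative to its own input by MACS (1.4.2 per the file headers, 1.4.1 in the study's methods), at a p threshold of 1e-05 and with at most 1 tag kept per position. For each peak the deposited lists hold the start, end, length, summit and an unnormalized count of tags. The deposited p-value is −log10 p multiplied by 10, the deposited fold enrichment is a ratio of tags to the local background of the input, and the FDR is given by the authors in percent. Smaller signals than the threshold have no value, and the lists depend on depth and on the input.

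Genes came from the GENCODE annotation of the same build. The tag counts of all peaks of a gene were summed and divided by the ChIP total in the headers, 14377535 to 21289349 tags, as counts per 1000000 tags (CPM). A gene was past the threshold at 1.5-fold; no test between conditions was possible with 1 library per condition. Motifs were searched on both strands within 100 bp of summits in the genome sequence. Named genes were the 7 members and, from the other pathway lists, those past 1.5-fold in curdlan over NT after centring or with an NFATc2 summit within 1 kb, at most 4 a list by tags. The members and lists were chosen with earlier results of these data known. The alternatives were other distances, motif windows, folds, scalings and peak filters. The scripts were tested on simulated data before use (4 of 4 checks passed) and ran on pysam 0.24.0 and scipy 1.17.1, with pandas 2.3.3 and numpy 2.4.6, in python 3.11.15.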

Additional observations from a re-analysis of the deposited data

How the results depend on the processing

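Members with an NFATc2 site went from 6 to 3 at 30 kb, at 20 kb and when the member had to hold the nearest TSS; sites with GGAAAA went from 3 to 6 at a window of 250 bp. For curdlan over NT, members higher went from 0 to 1 by fold enrichment, centred or not. Members lower went from 3 to 1 by fold enrichment, to 4 when it was centred and to 0 at 2-fold. For FK506 over curdlan, members higher went from 0 to 2 by fold enrichment and to 3 when it was centred, and members lower from 0 to 1 by fold enrichment. For FK506 over NT, members higher went from 0 to 2 by fold enrichment; members lower went from 4 to 1 with tags in all peaks as the total or with centring, and to 0 by fold enrichment, centred or not, and at 2-fold. Beside a median of 0.45 over all genes, the log2 ratio of FK506 to NT turned positive by fold enrichment at all 6 members: Pla2g4a (0.47), Ptgs1 (0.22), Ptges (0.73), Alox5 (0.70), Alox5ap (0.12) and Ltc4s (0.50). By centred fold enrichment it was positive at Pla2g4a (0.02), Ptges (0.28), Alox5 (0.24) and Ltc4s (0.05), per kb at Pla2g4a (0.13), and at Ptges with tags in all peaks (0.09) or centring (0.10). The 68 summary values not counted as moved, the 4 members above among them, kept within 1.5 times the main count. Log2 ratios of single genes were less stable: 84 kept near the main value, and the rest moved or changed sign. The cause of these shifts was not tested. The shares of all genes past the threshold by fold enrichment, or at 2-fold, are not given here, so these counts have no background beside them. Centred fold enrichment and the limits on the genes in the background were chosen after seeing the data. The tags left after the duplicate limit equal the header totals, so that alternative changed nothing. No paired analysis was possible because each condition has 1 library, and no library could be left out for the same reason.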

Other observations

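The Alox5ap peak had a high level but a low fold enrichment. Tags per kb divided by fold enrichment, a quantity that is larger where the input background of the caller is larger, was 21.8 in NT, at percentile 99.9 of NT peaks, against a median of 5.46 over the list and 7.20 over chromosome 5. The 27 NT peaks within 1 Mb of it had a median of 13.1. With curdlan the value at Alox5ap was 18.1, at percentile 99.9, against a list median of 3.62. With FK506 it was 14.7, at percentile 99.6, against a list median of 4.05. The part of this input background in the H3K4me3 values of Alox5ap was not tested.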
